A study of Mus musculus with 12 samples.

Results

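ICAM1 and the integrins are surface proteins by which macrophages hold on to other cells and to the extracellular matrix. The genes described here are a list of 10, chosen by name with earlier results of these data known. They are Icam1, the β2 integrin chain Itgb2 with its α partners Itgam, Itgax and Itgal, the chain Itgb1 with the α chains Itga4 and Itga6, and the pair Itgav and Itgb5. Shares of called genes in this list and in the gene lists below, set beside those of all genes, are therefore descriptions. All 10 were found among the 38887 genes of the tables, and all 10 passed the filter on low counts and were among the 12846 genes tested.

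An integrin is a dimer of an α and a β chain that spans the membrane, binds its ligand outside the cell and couples to the actin cytoskeleton inside it. Adaptors such as talin and the kindlins bind the β tail and switch the dimer to its ligand-binding form. The β2 integrins are restricted to leukocytes, and αLβ2 (LFA-1) and αMβ2 (Mac-1) bind ICAM1, a member of the immunoglobulin superfamily whose transcription is induced by NF-κB. In macrophages the β2 integrins serve adhesion and the uptake of complement-coated particles, whereas β1 and αv integrins bind fibronectin, laminin, vitronectin and VCAM1.

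RNA-Seq was performed on bone marrow-derived macrophages (BMMs) of mice aged 3 to 4 months, differentiated for 6 days with 50 ng/ml M-CSF. In the IGF2BP2 KO mice (B6.Cg-Igf2bp2tm1.1Thor/J crossed with a Lyz2-Cre line) exons 4 and 5 of Igf2bp2 were floxed and Cre was driven from the Lyz2 locus, so that deletion was directed to myeloid cells, and WT mice were littermates without floxed alleles that carried Cre or not. Cells of 3 WT and 3 KO mice were left untreated (WT M0 and KO M0) or received 20 ng/ml IL-4 for 8 h (WT M2 and KO M2), which gave 12 libraries, with n = 3 mice per group. The untreated and the treated library of a mouse share its cells, and M-CSF was common to all groups.

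Totals ranged from 20011792 to 39632770 expected counts per library. The counts of Igf2bp2 as a whole were 76.5 to 118 CPM (a scale of sequencing depth, with TMM factors) in WT M0 and 84.9 to 95.9 CPM in KO M0, and 178 to 233 CPM in WT M2 and 129 to 146 CPM in KO M2. These counts include the exons that remain and so do not test the deletion. Lyz2, the locus that holds Cre, was between 22.1 and 33.2 CPM in KO M0 against 7030 to 10544 CPM in WT M0, and at most 14.7 CPM in KO M2 against 4185 to 5293 CPM in WT M2, so that loss of IGF2BP2 and loss of Lyz2 transcript cannot be told apart in these mice. Igf2bp3 was also lower in KO, 4.48-fold in M0 (log2 fold change -2.16, SE 0.14, edgeR adjusted p = 1.18e-05) and 4.04-fold in M2 (-2.01, SE 0.14, edgeR adjusted p = 2.13e-05). Its part in the differences between KO and WT was not tested. The 6 macrophage markers (Adgre1, Csf1r, Cd68, Mertk, Fcgr1 and Cd14) summed to 3053 to 3909 TPM, and the 7 T and NK cell markers to at most 0.33 TPM, with Cd3e at 0 in all libraries. The B cell markers (4 genes, 3 of them under 1 TPM in all libraries of each group) summed to 7.64 to 13.0 TPM. The stromal markers (7 genes) summed to 11.2 to 21.8 TPM in WT M0, 3.54 to 12.9 TPM in KO M0, 12.6 to 23.1 TPM in WT M2 and 3.27 to 11.04 TPM in KO M2, and the mast cell and basophil markers (3 genes) to at most 0.23 TPM. As these are bulk libraries, fewer cells of a type and less RNA per cell cannot be told apart.

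Between KO and WT, 5 of the 10 genes were called in untreated cells and 1 after IL-4, and IL-4 changed most of the 10 in both genotypes. In M0, 5 of the 10 genes differed between KO and WT, against 9.78% of all genes tested: Itgb2, Itgam and Itgal were higher in KO (5.50% of all genes were higher) and Icam1 and Itgb5 were lower (4.27% of all genes were lower). In M2, 1 of the 10 differed, Itgal, which was higher in KO, against 2.68% of all genes (1.21% higher and 1.46% lower). IL-4 changed 9 of the 10 genes in WT, 3 upwards and 6 downwards, against a background of 50.0% (24.9% higher and 25.1% lower). In KO it changed 8, 2 upwards and 6 downwards, against 52.8% (26.8% higher and 26.0% lower). The response to IL-4 itself differed between KO and WT for 1 gene, Icam1, against 3.24% of all genes (1.11% higher and 2.13% lower in KO). With the mouse as a block, since the M0 and M2 libraries of a mouse are paired, 4 of the 10 differed (Icam1, Itgax, Itgam and Itgb2), against 7.80% of all genes. These calls rest on the quasi-likelihood F test of edgeR at an adjusted p under 0.05, and the median absolute log2 fold change of the 10 genes was 0.38 in M0 (0.12 over all genes), 0.16 in M2 (0.11 over all genes), 0.87 for IL-4 in WT (0.26 over all genes) and 0.43 for IL-4 in KO (0.27 over all genes).

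**Figure D1:**
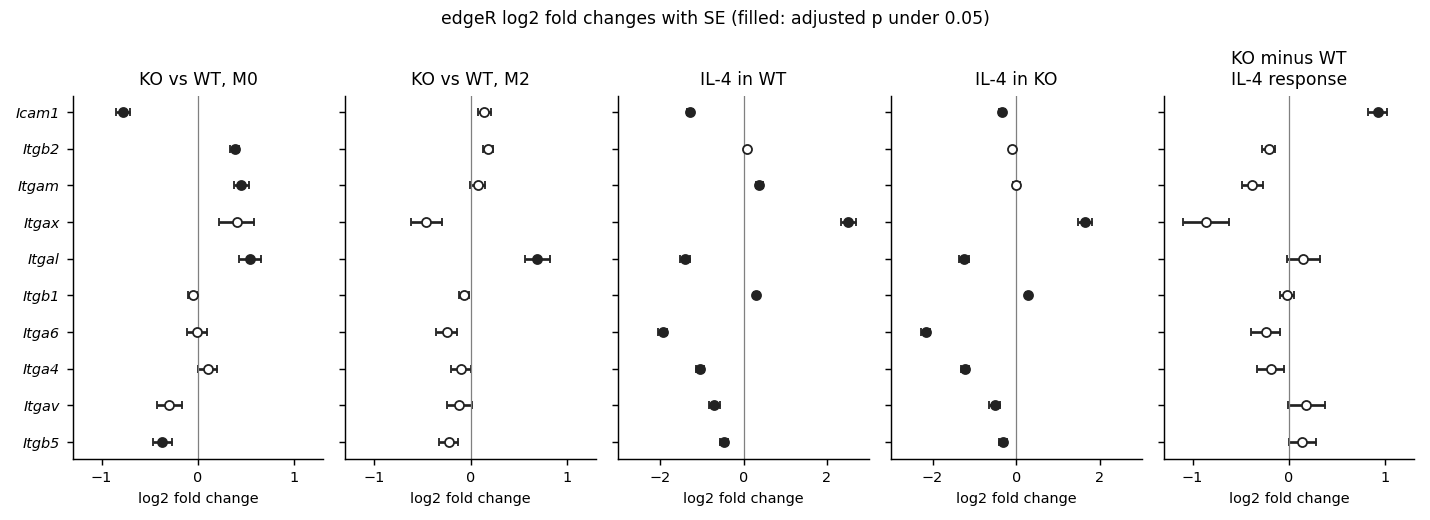
log2 fold changes of the 10 genes (x axis, points with SE from edgeR) in the comparisons of KO with WT, of IL-4 with no treatment, and of the KO with the WT response to IL-4. Filled points passed an adjusted p of 0.05; Icam1 is the lowest point in KO vs WT in M0 (-0.78) and the only filled point in the difference between the responses (0.92).

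On the TPM scale, which corrects for transcript length and so allows genes to be compared, Itgb2 was the most abundant of the 10 in every group, with means from 793 TPM in WT M0 to 1030 TPM in KO M0. Itgb1 and Itgam followed, and their ranges overlapped in WT M0, WT M2 and KO M2 but not in KO M0, where Itgam (525 TPM) lay above Itgb1 (398 TPM). In WT M0 the next were Itga6 (162 TPM), Icam1 (141 TPM) and Itgav (110 TPM), each overlapping its neighbour, and then, apart from each other, Itgb5 (60.8 TPM) and Itga4 (21.97 TPM). Itgal (7.33 TPM) and Itgax (5.43 TPM) were lowest and overlapped. After IL-4 the order changed at the lower end: Itgax lay above Itga4 and Itgal in both genotypes, and Itga6 was at the level of Itgb5, with overlapping ranges.

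**Figure D2:**
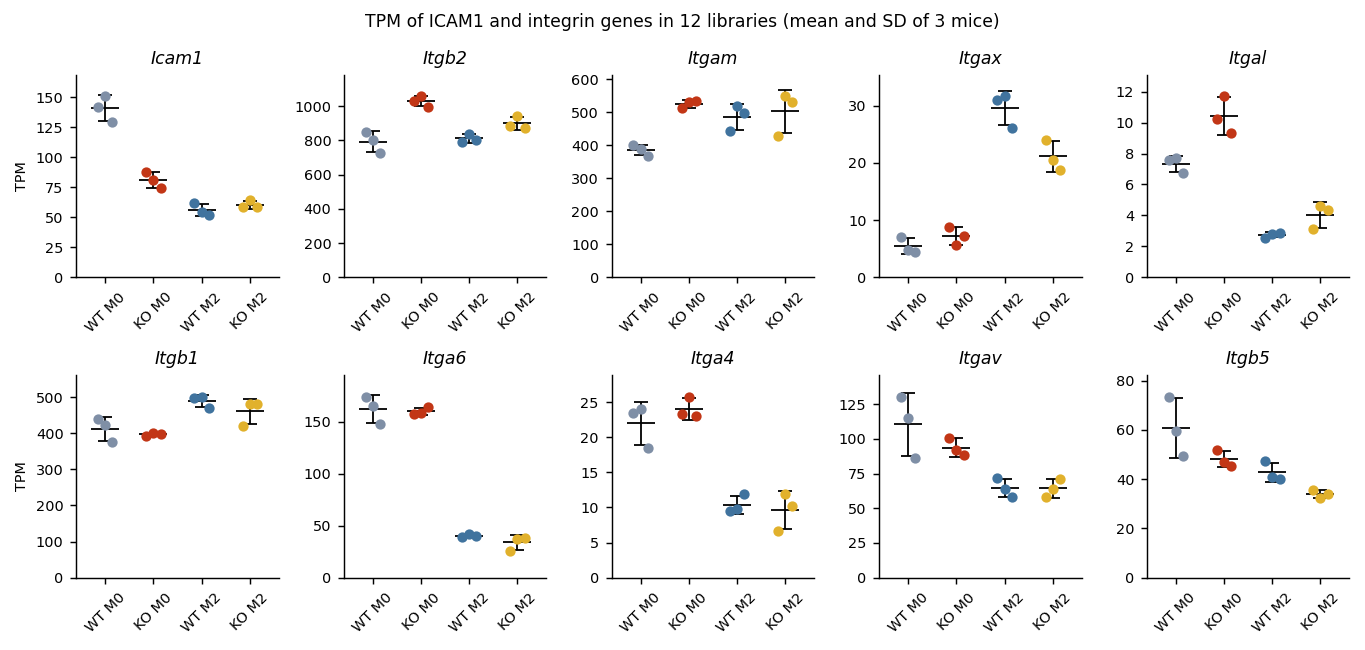
TPM (y axis, linear from 0) of the 10 genes in each of the 12 libraries, by group (x axis), with 1 point per mouse and bars for the mean and SD of 3 mice. Icam1 has its highest values in WT M0 (129 to 151 TPM), Itgax rises in both M2 groups, and Itga6 falls from 147 TPM or more to 41.7 TPM or less.

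Icam1 (GRCm38 chr9:21015985-21028817, plus strand) encodes the ligand of αLβ2 and αMβ2. Its level was 142, 151 and 129 TPM in WT M0 and 87.9, 81.4 and 74.7 TPM in KO M0. After IL-4 it was 61.6, 54.4 and 51.7 TPM in WT and 58.4, 64.3 and 58.3 TPM in KO. The untreated WT libraries thus stood above all others, the untreated KO libraries were intermediate, and the M2 libraries of the genotypes overlapped. In M0, Icam1 was 1.72-fold lower in KO than in WT (log2 fold change -0.78, SE 0.07, edgeR adjusted p = 9.71e-05), whereas in M2 the log2 fold change was 0.14 (SE 0.07, edgeR adjusted p = 0.315). With IL-4, Icam1 fell by 58.5% in WT (log2 fold change -1.27, SE 0.07, edgeR adjusted p = 1.75e-08) and fell by 21.5% in KO (-0.35, SE 0.07, edgeR adjusted p = 0.00116). The KO response was less negative by 0.92 on the log2 scale (SE 0.10, edgeR adjusted p = 0.00185), and each of the 12 fits that left out 1 library kept this call, with differences from 0.87 to 0.99.

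The deposited counts may include reads of an antisense transcript at this locus: in GENCODE M21, 10.2% of the 75-base words of Icam1 also occur on the opposite strand in Gm47079, a gene that the tables do not list. Kits that mark strand were used, but whether the counting used the strand is not given in the sources used here.

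The promoter of Icam1 is shown because the letters that NF-κB recognises can be read in it. It comprises the 250 bases before the RefSeq start (GRCm38.p6 chr9:21015690-21015939, plus strand), and the capitals mark the letters GGNNNTTCC on either strand.

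Icam1: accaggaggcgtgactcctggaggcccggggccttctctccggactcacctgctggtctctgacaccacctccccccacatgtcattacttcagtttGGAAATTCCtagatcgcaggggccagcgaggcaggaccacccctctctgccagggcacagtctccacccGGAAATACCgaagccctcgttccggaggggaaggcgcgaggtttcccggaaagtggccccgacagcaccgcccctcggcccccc

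The first match begins 153 bases before the start, where the pattern is met on both strands, and the second begins 84 bases before the start and lies on the minus strand. Of 32851 RefSeq promoter windows of this length, 15.7% hold the NF-κB letters. Among the 10 genes, 7 had a promoter in the table (Itgal, Itgb2 and Itga6 had none), and besides Icam1 only Itgb1 held these letters, once, beginning at 164 bases before its start. A match is a run of letters and not a bound site.

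Over the 12 libraries, the genes whose log2 CPM ran most nearly parallel to Icam1 were Nfkb2 (Pearson r 0.989), Slc39a13 (0.989), Map2k3 (0.978), Hexim1 (0.978) and Nfkbie (0.968), out of 9694 genes that averaged 5 CPM or more. Nfkb2 encodes the p100 precursor of an NF-κB subunit and Nfkbie an inhibitor of NF-κB. The 12 points are 4 groups of 3 mice, so that the r mostly follows the group means. Mean levels of Nfkb2 were 175 CPM in WT M0, 104 CPM in KO M0, 81.4 CPM in WT M2 and 83.4 CPM in KO M2. Of the other 9 genes of the list, Itgav (0.853) and Itgb5 (0.846) had the highest r with Icam1, and Itgax (-0.862) and Itgam (-0.814) the lowest.

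Itgb2 (GRCm38 chr10:77530252-77565708, plus strand) encodes the β2 chain, without which no β2 integrin reaches the surface. It was at 847, 803 and 729 TPM in WT M0 and at 1032, 1058 and 998 TPM in KO M0. In M2 it was at 792, 839 and 805 TPM in WT and at 883, 945 and 872 TPM in KO. In both treatments every KO library lay above every WT library. Between the genotypes, the log2 fold change (KO over WT) was 0.38 in M0 (SE 0.05, edgeR adjusted p = 0.00057) and 0.18 in M2 (SE 0.05, edgeR adjusted p = 0.0652), which missed the threshold. IL-4 gave 0.09 in WT (edgeR adjusted p = 0.122) and -0.11 in KO (edgeR adjusted p = 0.057). The KO value became a call with the mouse as a block (log2 fold change -0.11, edgeR adjusted p = 0.0265, where 58.2% of all genes were called). It was also a call in 6 of the other 7 fits of all KO libraries, but in none of the 6 that left out 1 library (edgeR adjusted p from 0.0596 to 0.228).

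Itgam (GRCm38 chr7:128062640-128118491, plus strand) encodes αM, or CD11b, the α chain of the complement receptor Mac-1. Its values were 400, 388 and 368 TPM in WT M0 against 512, 530 and 534 TPM in KO M0. In M2 they were 443, 518 and 496 TPM in WT and 428, 548 and 531 TPM in KO. The M0 groups did not overlap and the M2 groups did. Itgam was 36.5% higher in KO than in WT in M0 (log2 fold change 0.45, SE 0.08, edgeR adjusted p = 0.00396), and the log2 fold change in M2 was 0.07 (SE 0.08, edgeR adjusted p = 0.647). IL-4 raised Itgam in WT (0.38, SE 0.08, edgeR adjusted p = 0.00106) but gave 0.00 in KO (SE 0.08, edgeR adjusted p = 0.979). In GENCODE M21, 65.2% of its 75-base words are shared with Gm49368, a gene on the same strand that spans nearly all of Itgam and that the tables do not list.

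Itgal (GRCm38 chr7:127296260-127335138, plus strand) encodes αL, the α chain of LFA-1. It was at 7.57, 7.70 and 6.71 TPM in WT M0 and at 10.3, 11.7 and 9.30 TPM in KO M0. With IL-4 it was at 2.56, 2.80 and 2.88 TPM in WT and at 3.10, 4.62 and 4.37 TPM in KO. Both M2 groups lay below both M0 groups, and within each treatment all KO libraries lay above all WT libraries. KO against WT gave a log2 fold change of 0.54 in M0 (SE 0.11, edgeR adjusted p = 0.0118) and 0.69 in M2 (SE 0.13, edgeR adjusted p = 0.0229). With IL-4, Itgal fell by 62.2% in WT (edgeR adjusted p = 1.62e-06) and fell by 58.0% in KO (edgeR adjusted p = 1.39e-06). The M0 call was lost without KO M0 replicate 2 (log2 fold change 0.46, edgeR adjusted p = 0.0635) and in both limma fits on TPM (limma adjusted p = 0.0572 and 0.0748). The M2 call was lost without WT M2 replicate 1 or 2 or KO M2 replicate 2 or 3 (edgeR adjusted p from 0.0741 to 0.102), with only the 6 M2 libraries in the fit (edgeR adjusted p = 0.0596) and with limma (limma adjusted p = 0.129 and 0.109), while the log2 fold change lay between 0.41 and 0.83 in all fits run. With 138 counts in its poorest library, Itgal was the least precisely measured of the 10: the deposited interval around its TPM, whose level is not given in the sources used here, reached 6.52% to 19.1% of the value to either side.

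Itgax (GRCm38 chr7:128129547-128150657, plus strand) encodes αX, or CD11c, which is best known from dendritic cells but is also carried by activated macrophages. It was at 7.05, 4.86 and 4.39 TPM in WT M0 and at 8.71, 5.66 and 7.23 TPM in KO M0. IL-4 brought it to 31.0, 31.6 and 26.1 TPM in WT and to 24.0, 20.6 and 18.8 TPM in KO. All M2 libraries lay above all M0 libraries, and in M2 every KO library lay below every WT library. It had the largest rise of the 10 genes after IL-4, 5.69-fold in WT (log2 fold change 2.51, SE 0.18, edgeR adjusted p = 1.29e-07) and 3.13-fold in KO (1.65, SE 0.17, edgeR adjusted p = 3.64e-06). Between KO and WT the log2 fold change was 0.40 in M0 (SE 0.18, edgeR adjusted p = 0.189) and -0.46 in M2 (SE 0.16, edgeR adjusted p = 0.138). The 7 dendritic cell markers of a list (Flt3, Zbtb46, Ccr7, Xcr1, Clec9a, Cd209a and Dpp4) summed to 0.29 to 0.54 TPM in M0 and 0.97 to 1.39 TPM in M2, with Xcr1 at 0 in all M2 libraries, and their part in the rise of Itgax was not tested.

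The responses of Itgax, Itgam and Itgb2 to IL-4 were lower in KO than in WT, but the differences did not pass the threshold in the fit without pairing: -0.86 (SE 0.24, edgeR adjusted p = 0.0761), -0.38 (SE 0.11, edgeR adjusted p = 0.079) and -0.21 (SE 0.07, edgeR adjusted p = 0.117) on the log2 scale. With the mouse as a block, which uses that the M0 and M2 libraries came from the same mice, all 3 passed, with -0.87 (edgeR adjusted p = 0.0104), -0.38 (edgeR adjusted p = 0.0142) and -0.21 (edgeR adjusted p = 0.0482). Together with Icam1, 4 of the 10 genes were then called. Itgal gave 0.15 (SE 0.17, edgeR adjusted p = 0.702). Without WT M0 replicate 1 or KO M2 replicate 1 the difference for Itgax also passed in the fit without pairing (edgeR adjusted p = 0.0211 for -1.07 and 0.0481 for -0.99).

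**Figure D3:**
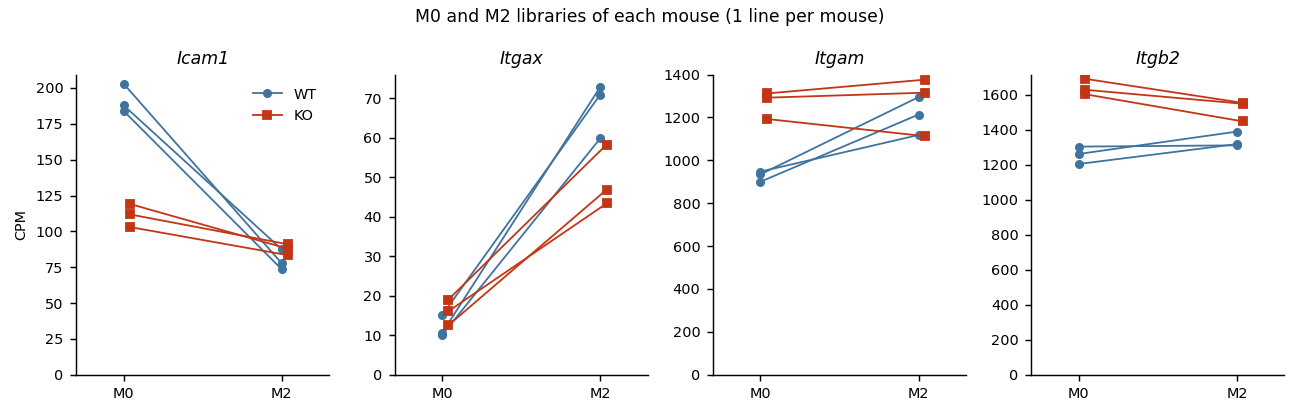
CPM (y axis, linear from 0) of Icam1, Itgax, Itgam and Itgb2 in the untreated (M0) and IL-4-treated (M2) library of each mouse, joined by 1 line per mouse, with WT as circles and KO as squares. The WT lines for Icam1 start higher and fall more steeply, and those for Itgam rise in all 3 WT mice.

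The promoters of a pair of α chains that IL-4 raised in WT are shown, each with the letters that were found in it. That of Itgb1, which IL-4 also raised in WT, is not shown. The windows are the 250 bases before the RefSeq start, Itgam at GRCm38.p6 chr7:128062390-128062639 and Itgax at chr7:128129300-128129549, both on the plus strand. Capitals mark GAGGAA on either strand in Itgam, the core letters of PU.1, a factor of the myeloid lineage, and in Itgax the letters of STAT6 (TTC, any 4 bases, GAA), the factor that the IL-4 receptor activates.

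Itgam: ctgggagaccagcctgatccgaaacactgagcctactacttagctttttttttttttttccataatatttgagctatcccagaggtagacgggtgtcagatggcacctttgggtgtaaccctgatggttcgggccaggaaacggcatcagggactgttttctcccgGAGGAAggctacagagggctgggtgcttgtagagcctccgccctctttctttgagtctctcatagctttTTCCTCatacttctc
Itgax: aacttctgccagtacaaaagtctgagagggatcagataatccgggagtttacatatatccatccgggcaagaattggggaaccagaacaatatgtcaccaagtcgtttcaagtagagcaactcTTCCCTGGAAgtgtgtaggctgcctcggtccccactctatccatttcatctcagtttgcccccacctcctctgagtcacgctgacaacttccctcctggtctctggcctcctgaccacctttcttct

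The STAT6 letters began 127 bases before the start of Itgax and were in no other of the 7 promoters, and 5.85% of all windows hold them. The PU.1 letters began 84 and 15 bases before the start of Itgam, the latter on the minus strand. They were also in Itgb1, which rose with IL-4, and in Itgav, which fell. These letters occur in 23.3% of all windows. A relation of the marked letters to the response to IL-4 was not tested.

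The sum of the α partners Itgal, Itgam and Itgax was compared with Itgb2 as a ratio of TPM. It was 0.489, 0.498 and 0.520 in WT M0, 0.514, 0.517 and 0.551 in KO M0, 0.602, 0.659 and 0.652 in WT M2, and 0.515, 0.607 and 0.635 in KO M2. In WT the M2 libraries lay above the M0 libraries, and in the other comparisons the ranges overlapped. Within mice, the M2 ratio was above the M0 ratio in all 3 WT and all 3 KO mice. The difference of means was 0.135 for IL-4 in WT (two-sided exact permutation p = 0.1, the smallest that 3 against 3 libraries allow, and 0.3 when adjusted over 4 comparisons). It was 0.058 for IL-4 in KO, 0.025 for KO vs WT in M0 and -0.052 for KO vs WT in M2, each with an exact permutation p of 0.3 before and after adjustment. Paired by mouse, the exact sign-flip p was 0.25 for IL-4 in either genotype, the smallest that 3 pairs allow. Itgam made up 93.0% to 97.1% of the sum in all libraries, and Itgax rose from 1.03% to 1.70% of it in M0 to between 3.4% and 6.49% in M2. A ratio of transcripts is not a ratio of dimers on the surface.

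**Figure D4:**
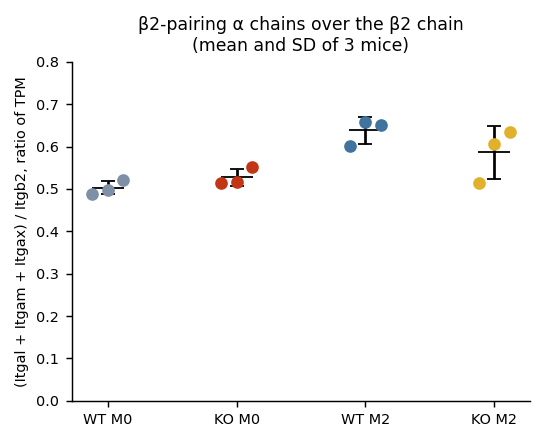
Ratio of the summed TPM of Itgal, Itgam and Itgax to the TPM of Itgb2 (y axis, from 0) in each library, by group (x axis), with 1 point per mouse and bars for the mean and SD of 3 mice. The 3 WT M2 libraries (0.602 to 0.659) lie above the 3 WT M0 libraries (0.489 to 0.520), and KO M2 spans 0.515 to 0.635.

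The 7 neutrophil markers, which belong to cells that also carry β2 integrins, summed to 22.1 to 55.9 TPM in WT M0 and 16.7 to 18.4 TPM in KO M0, and to 13.1 to 32.9 TPM in WT M2 and 12.8 to 17.8 TPM in KO M2, with Ly6g at 0 in all 12 libraries. The sum was thus lower in KO M0, where Itgb2, Itgam and Itgal were higher, and its part in these differences was not tested.

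Itgb1 (GRCm38 chr8:128685654-128733200, plus strand) encodes the β1 chain, the common partner of the fibronectin and laminin receptors. It was at 439, 424 and 376 TPM in WT M0, 394, 401 and 398 TPM in KO M0, 497, 502 and 469 TPM in WT M2, and 419, 480 and 482 TPM in KO M2. All M2 libraries of a genotype lay above its M0 libraries, while the genotypes overlapped. IL-4 raised Itgb1 by 23.8% in WT (log2 fold change 0.31, SE 0.05, edgeR adjusted p = 0.000209) and by 22.2% in KO (0.29, SE 0.05, edgeR adjusted p = 0.000307). KO and WT differed by -0.05 in M0 (SE 0.05, edgeR adjusted p = 0.599) and -0.07 in M2 (SE 0.05, edgeR adjusted p = 0.483) on the log2 scale.

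Itga6 (GRCm38 chr2:71745616-71858416, plus strand) encodes α6, the α chain of laminin receptors, and fell most among the 10 genes with IL-4. It was at 174, 165 and 147 TPM in WT M0 and 157, 159 and 164 TPM in KO M0, and at 39.0, 41.7 and 40.5 TPM in WT M2 and 26.0, 37.5 and 38.4 TPM in KO M2. The M0 and M2 ranges were far apart. In M2 all KO libraries lay below all WT libraries, with KO M2 replicate 1 the lowest. It fell by 73.7% in WT (log2 fold change -1.93, SE 0.11, edgeR adjusted p = 1.73e-08) and fell by 77.7% in KO (-2.17, SE 0.11, edgeR adjusted p = 5.9e-09). The KO to WT log2 fold change was -0.01 in M0 (SE 0.10, edgeR adjusted p = 0.955) and -0.25 in M2 (SE 0.11, edgeR adjusted p = 0.22).

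Itga4 (GRCm38 chr2:79255426-79333123, plus strand) encodes α4, which with β1 binds VCAM1 and fibronectin and with β7 binds MAdCAM-1. It was at 23.4, 24.0 and 18.5 TPM in WT M0, 23.3, 25.8 and 23.0 TPM in KO M0, 9.53, 9.71 and 11.9 TPM in WT M2, and 6.71, 12.0 and 10.2 TPM in KO M2. The genotypes overlapped in both treatments, and both M2 groups lay below both M0 groups. With IL-4 it fell by 51.5% in WT (log2 fold change -1.04, SE 0.10, edgeR adjusted p = 2.68e-06) and fell by 57.5% in KO (-1.23, SE 0.10, edgeR adjusted p = 4.14e-07). The KO to WT log2 fold change was 0.10 in M0 (edgeR adjusted p = 0.585) and -0.10 in M2 (edgeR adjusted p = 0.639).

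Itgav (GRCm38 chr2:83724397-83806916, plus strand) encodes αv, which pairs with β3 and β5 to bind vitronectin and osteopontin and, on phagocytes, the bridge proteins of apoptotic cells. It was at 130, 115 and 85.9 TPM in WT M0, 101, 92.3 and 88.1 TPM in KO M0, 71.6, 63.8 and 58.3 TPM in WT M2, and 58.0, 63.5 and 71.1 TPM in KO M2. The WT M0 libraries spread most widely and enclosed the KO M0 libraries. With IL-4, Itgav fell by 38.4% in WT (log2 fold change -0.70, SE 0.13, edgeR adjusted p = 0.000797) and fell by 30.1% in KO (-0.52, SE 0.13, edgeR adjusted p = 0.0055). KO against WT gave a log2 fold change of -0.30 in M0 (SE 0.13, edgeR adjusted p = 0.18), and it passed the threshold only without WT M0 replicate 3 (-0.46, edgeR adjusted p = 0.00773). In M2 it was -0.12 (SE 0.13, edgeR adjusted p = 0.662).

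Itgb5 (GRCm38 chr16:33829665-33949338, plus strand) encodes the β5 chain, a partner of αv in the vitronectin receptor. It was at 73.5, 59.6 and 49.3 TPM in WT M0, 51.6, 47.1 and 45.3 TPM in KO M0, 47.3, 40.7 and 40.2 TPM in WT M2, and 35.4, 32.2 and 33.9 TPM in KO M2. In TPM the M0 ranges of the genotypes overlapped and in M2 all KO libraries lay below all WT libraries, whereas in CPM they were apart in M0 and overlapped in M2. KO against WT gave a log2 fold change of -0.37 in M0 (SE 0.10, edgeR adjusted p = 0.0302) and -0.23 in M2 (SE 0.10, edgeR adjusted p = 0.214). The M0 call held in 1 of the 6 fits that left out a library, the one without WT M0 replicate 3, and was lost in the other 5 (edgeR adjusted p from 0.0688 to 0.121), as it was with limma on TPM (limma adjusted p = 0.153 and 0.155). With IL-4, Itgb5 fell by 27.4% in WT (edgeR adjusted p = 0.00167) and fell by 19.9% in KO (edgeR adjusted p = 0.0144), and the call in KO was lost without KO M0 replicate 1 or KO M2 replicate 2 (edgeR adjusted p = 0.0523 and 0.0637). The stromal marker sum, given above, was lower in KO M2 than in WT M2 without overlap, as Itgb5 was in TPM, and its part in these values was not tested.

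The other integrin chains were a list of 18 genes, of which 9 were tested. In M0, 1 was higher and 3 were lower in KO, where 5.50% of all genes were higher and 4.27% lower. The median over the 9 was -0.38 on the log2 scale (-0.001 over all genes), and it was 0.14 over the 4 of them with 1 CPM in all libraries. With only the 6 M0 libraries in the fit, 7 were tested, 1 was higher and 2 were lower, with a median of 0.13. Itgb7, the partner of α4 and αE in mucosal homing, was higher in KO in M0 (log2 fold change 0.66, SE 0.10, edgeR adjusted p = 0.00211) and in M2 (0.60, SE 0.10, edgeR adjusted p = 0.0151), at 115 to 139 TPM in WT M0 against 181 to 205 TPM in KO M0. Itga5, the α chain of the fibronectin receptor, was lower in KO M0 (-0.38, SE 0.07, edgeR adjusted p = 0.00616). Itgb3, which joins αv in the osteopontin and vitronectin receptor, was lower in KO M0 (-1.07, SE 0.17, edgeR adjusted p = 0.00311), at 0.19 to 0.26 TPM against 0.43 to 0.56 TPM in WT. The other lower gene, named after its values were seen, was Itgb8 at 0.02 to 0.05 TPM in KO M0 and 0.07 to 0.09 TPM in WT M0, at 3 to 11 counts per M0 library. Itgb8 was not tested in the fit of only the 6 M0 libraries, and its call held in 1 of the 6 fits that left out 1 library, the one without WT M0 replicate 1. The M2 call for Itgb7 was lost without WT M2 replicate 2, KO M2 replicate 2 or KO M2 replicate 3 (edgeR adjusted p up to 0.0823). The M0 call for Itgb3 was lost with limma at pseudocount 1 (limma adjusted p = 0.109).

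IL-4 raised Itgb3 to 12.4, 13.5 and 14.97 TPM in WT (log2 fold change 4.89, SE 0.11, edgeR adjusted p = 5.27e-12) and to 12.2, 12.4 and 11.8 TPM in KO (5.81, SE 0.12, edgeR adjusted p = 2.83e-12). The M2 groups overlapped in part, and the responses differed by 0.93 (SE 0.19, edgeR adjusted p = 0.0218). This call was lost without KO M0 replicate 1 or 2 (edgeR adjusted p up to 0.0652) and with limma (limma adjusted p up to 0.708). Itgb3 was not tested where 1 CPM was required in all libraries. Itgb3 and Itgb5, both partners of αv, thus moved in opposite directions with IL-4. IL-4 lowered Itga8 (-3.32 in WT and -2.58 in KO) and Itga5 (-1.53 and -1.17), and with the mouse as a block 3 of the 9 had a higher response in KO instead of 1, where 7.80% of all genes were called in either direction with the block and 3.24% without it. The 3 platelet and megakaryocyte markers, a lineage that carries β3, summed to 6.63 to 12.5 TPM in WT M0, 12.2 to 16.1 TPM in KO M0, 8.92 to 14.5 TPM in WT M2 and 17.7 to 19.8 TPM in KO M2, with Gp9 at 0 in all libraries. In each group 2 of the 3 were under 1 TPM in all libraries, so that the sum is mostly that of a single gene. The part of these markers in the values of Itgb3 was not tested.

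Among the other cell surface ligands, 6 of 10 were tested and 0 were called between KO and WT in either treatment by edgeR, beside 9.78% of all genes in M0 and 2.68% in M2. An unadjusted p under 0.05 was found for 2 in M0 and 1 in M2, beside 3252 and 2611 of all 12846 genes. DESeq2 called 1 in M0 and 0 in M2, and limma 0 in both. In M0 edgeR also called 1, as lower, without a filter, with the library number as a block, with only the 6 M0 libraries and without WT M0 replicate 3. The largest difference of the list was that of Vcam1, lower in KO in M0 (log2 fold change -1.68, SE 0.50, edgeR adjusted p = 0.0513), which missed the threshold. In M2 it was -1.08 (SE 0.61, edgeR adjusted p = 0.348). Only 2 of these ligands were tested where 1 CPM was required in all libraries. In Icam2, the second ligand of LFA-1, the levels were 13.5 to 19.8 TPM in WT M0 and 15.2 to 19.0 TPM in KO M0 (log2 fold change 0.02, SE 0.17, edgeR adjusted p = 0.971), and the ranges overlapped. Pecam1, the adhesion molecule of endothelium and leukocytes, rose with IL-4 by 4.74 in WT (SE 0.14, edgeR adjusted p = 4.08e-11) and 5.01 in KO (SE 0.14, edgeR adjusted p = 3.52e-11) on the log2 scale. The 4 endothelial markers, 3 of them under 1 TPM in all libraries of each group, summed to 2.93 to 3.54 TPM in M0 and 1.28 to 2.16 TPM in M2. Emcn was at 0 in all M2 libraries, and the part of these markers in the values of Pecam1 was not tested. With IL-4, 1 of the 6 ligands was higher and 2 were lower in each genotype, which is near the share of all genes that changed (50.0% in WT and 52.8% in KO). Of the matrix and soluble ligands, 12 of 15 were tested, and in M0 only Spp1 (osteopontin) was called, lower in KO (-0.32, SE 0.08, edgeR adjusted p = 0.0323), a call lost without WT M0 replicate 2 or 3 or KO M0 replicate 1 or 2 and with only the 6 M0 libraries (edgeR adjusted p up to 0.123). IL-4 changed 7 of these 12 in each genotype, near the 50.0% and 52.8% of all genes, among them Fn1 (1.35 in WT and 1.58 in KO), C3 (1.02 and 0.53) and Lamc1 (-0.80 and -0.71).

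Inside the cell, 16 of 17 genes of integrin activation were tested. Between KO and WT 0 were called in M0 by edgeR (7 at an unadjusted p under 0.05, 3 by DESeq2 and 0 by limma), beside 9.78% of all genes. Of the 12846 genes, 3252 had an unadjusted p under 0.05 in M0. In M2 1 was called, beside 2.68% of all genes: Fyb, the adaptor ADAP, which was lower (-0.44, SE 0.11, edgeR adjusted p = 0.0498). This call was lost in all fits that left out 1 library except the one without WT M2 replicate 3, with RLE factors, with limma and with only the 6 M2 libraries (adjusted p up to 0.169 over the edgeR and limma fits). IL-4 raised Fermt3, the kindlin of blood cells, by 0.63 in WT (edgeR adjusted p = 1.74e-07) and 0.66 in KO (edgeR adjusted p = 1e-07), and Tln1, or talin, by 0.74 in WT (edgeR adjusted p = 6.2e-06) and 0.48 in KO (edgeR adjusted p = 0.000209), the latter not called by limma (limma adjusted p up to 0.0916). In all, 7 rose and 3 fell in WT, and 5 rose and 6 fell in KO, where 50.0% and 52.8% of all genes changed. Itgb1bp1 was among those that rose (log2 fold change 0.44 in WT and 0.64 in KO) and Fyb among those that fell (-1.31 and -1.63). The list was not divided into activators and inhibitors, so that these counts give no direction of activation. Apbb1ip (RIAM), which brings talin to the membrane, had a lower response in KO (-0.45, SE 0.11, edgeR adjusted p = 0.048), and with the mouse as a block 2 of the 16 did, where 7.80% of all genes were called (3.24% without the block). The call for Apbb1ip was lost with limma and in 10 of the 12 fits that left out 1 library, all but those without WT M0 replicate 1 or WT M2 replicate 3 (adjusted p up to 0.138).

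All 26 genes of adhesion signalling and cytoskeletal linkers were tested. In M0 6 were higher and 4 were lower in KO (median 0.03 on the log2 scale), beside 5.50% and 4.27% of all genes, and 2 to 7 were higher and 1 to 5 lower in the other fits. Vav3, a signalling protein that acts downstream of integrins, was higher (0.60, SE 0.08, edgeR adjusted p = 0.00111) and ezrin (Ezr), which ties ICAM1 to actin, was lower (-0.56, SE 0.08, edgeR adjusted p = 0.0019). In M2 3 were lower, beside 1.46% of all genes: Vav3 (-0.34, SE 0.08, edgeR adjusted p = 0.0447), which was higher in M0, Vcl (vinculin, -0.34, SE 0.06, edgeR adjusted p = 0.0197) and Ptk2 (focal adhesion kinase, -0.47, SE 0.10, edgeR adjusted p = 0.0275). Ptk2 was also lower in M0 (-0.33, SE 0.09, edgeR adjusted p = 0.0364). In M2, 0 to 2 were lower without 1 library (0 without WT M2 replicate 2, KO M2 replicate 2 or KO M2 replicate 3) and 0 to 4 in the other fits, with 0 by limma. The M0 call for Ptk2 was lost in each of the 6 fits that left out 1 library and with limma (adjusted p up to 0.134). The response of Ezr to IL-4 was higher in KO (0.82, SE 0.12, edgeR adjusted p = 0.0046), in the same direction as that of Icam1, and the response of Vav3 was lower (-0.94, SE 0.11, edgeR adjusted p = 0.00279). With the mouse as a block 3 responses were lower in KO instead of 1, and with the higher one this makes 4 of 26, where 7.80% of all genes were called (3.24% without the block). IL-4 raised 6 and lowered 11 of the 26 in WT, and raised 5 and lowered 13 in KO, beside 24.9% raised and 25.1% lowered of all genes in WT and 26.8% and 26.0% in KO.

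The NF-κB subunits and feedback genes, 16 of 16 tested, include the genes that NF-κB itself induces. In M0 12 were lower and 0 higher in KO (median -0.40 on the log2 scale), where 4.27% of all genes were lower and 5.50% higher. In the other fits 9 to 12 were lower, with 1 higher only without WT M0 replicate 3. The largest falls among them were those of Cd83 (-1.06, SE 0.16, edgeR adjusted p = 0.00241), Nfkb2 (-0.76, SE 0.07, edgeR adjusted p = 0.000151) and Tnf (-0.68, SE 0.08, edgeR adjusted p = 0.000595). The exceptions were Rel, Rela, Nfkbiz and Ccl2, with log2 fold changes from -0.18 to 0.32. In M2, where 1.21% of all genes were higher, 3 were higher and 0 lower (Traf1, Nfkbib and Tnip1, log2 fold changes of 0.50, 0.28 and 0.24), with 0 to 4 higher in the other fits and 0 or 1 without any single M2 library.

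IL-4 changed all 16 in WT, 5 upwards and 11 downwards, with a median of -1.05, and 14 in KO, 5 upwards and 9 downwards, with a median of -0.40, while 50.0% of all genes changed in WT and 52.8% in KO. The response differed between the genotypes for 11 of the 16, all higher in KO, where 1.11% of all genes were higher, with a median difference of 0.51 (0.006 over all genes) and with 8 to 12 higher in the other fits and 1 lower only without WT M0 replicate 3. Tnf went from 131, 138 and 160 TPM to 27.9, 27.9 and 26.1 TPM in WT and from 86.5, 92.4 and 88.0 TPM to 30.4, 28.9 and 29.5 TPM in KO. For Tnf, as for Icam1, the genotypes were apart before IL-4 and nearly level after it. Not all genes of the list fell as Tnf did, since 5 rose in each genotype, beside 11 that fell in WT and 9 in KO. Among the 5, Cd83 rose by 1.99 in WT and 3.2 in KO on the log2 scale. Nfkb1, itself an NF-κB subunit gene, rose by 1.47 and 1.88, and Ccl2 by 1.62 and 1.45. The comparisons of the genotypes and of their responses share the same M0 libraries, so that a lower M0 level in KO enters both.

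**Figure D5:**
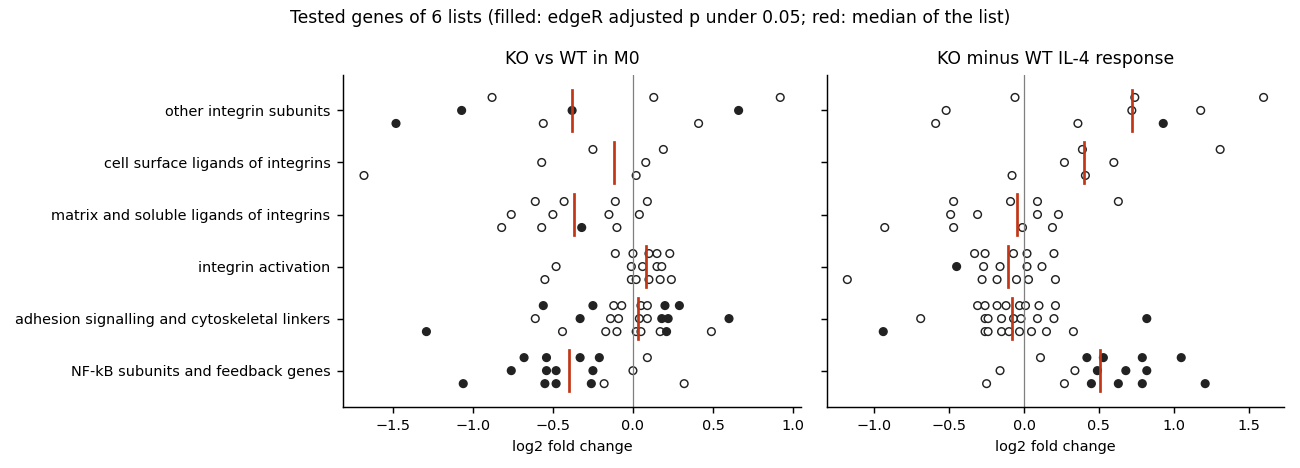
log2 fold changes (x axis) of the tested genes of 6 lists (rows) for KO vs WT in M0 and for the difference between the IL-4 responses (KO minus WT), with 1 circle per gene, filled where the edgeR adjusted p was under 0.05, and a red line at the median of the list. Of the NF-κB genes, 12 filled circles lie below 0 on the left and 11 above 0 on the right, with medians of -0.40 and 0.51.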

How the data were processed

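Per the labels, poly(A) RNA of 12 BMM cultures was sequenced with a directional kit as single reads of 75 nt. The authors aligned the reads to GRCm38/mm10 and deposited, for each library, the expected count and the TPM of 38887 genes, together with posterior mean TPM and interval bounds (used here as a signal) and gene lengths. The quantifier and the annotation release are not given in the sources used here. The deposited DESeq2 tables (version 1.40.2) hold fold changes and p-values of the authors' comparisons, and only their gene names were used. Symbols were found for 37570 genes, and GENCODE M21 and RefSeq (GRCm38.p6) supplied positions and promoters.

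Expected counts were rounded, filtered with filterByExpr by group and fitted in R 4.3.3 with edgeR 4.0.16 (TMM, quasi-likelihood F test, 1 coefficient per group, all 12 libraries). Adjustment over 12846 genes followed Benjamini and Hochberg, with calls made under 0.05. The tests set differences of groups against the spread between libraries of a group. Without the mouse as a block, the M0 and M2 libraries of a mouse are treated as independent. The biological coefficient of variation was 8.08%. SE is the fold change over the root of F. Exact permutation tests used scipy 1.17.1. The scripts were tested on simulated data. M0 and M2 libraries of a number and genotype came from 1 mouse per the labels, and after removal of group means they correlated at 0.103 to 0.364 in WT and 0.16 to 0.209 in KO. They were -0.068 to 0.04 between WT and KO libraries of a number, which therefore did not pair the genotypes.

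Alternatives were DESeq2 1.42.0, RLE factors, no filter, a filter of 1 CPM in all libraries, a replicate block, limma-trend 3.58.1 on log2 TPM (pseudocount 1 or 0.1), only the 6 libraries compared, and leaving out each library. The 10 genes, the 6 pathway lists with 102 genes and the 9 marker lists were chosen with earlier results of these data known. Named were all 10 genes, at most 3 called genes in each direction per list and comparison (the largest changes with a mean of at least 5 CPM), and the 5 genes most correlated with Icam1. Icam2, Vcam1, Rel, Rela, Nfkbiz and Ccl2 were named after their values were seen. The number of counts limits precision, and the intervals cover counting error only.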

Additional observations from a re-analysis of the deposited data

Results flagged for a closer look

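For Icam1 the test of the difference itself separated the IL-4 responses of KO and WT: the KO response minus the WT response was 0.92 on the log2 scale (SE 0.10, edgeR adjusted p = 0.00185), with a fall in all 3 mice of each genotype. The M0 levels, 129 to 151 TPM in WT and 74.7 to 87.9 TPM in KO, were apart, and the M2 levels, 51.7 to 61.6 TPM and 58.3 to 64.3 TPM, overlapped. With 3 libraries per group, single libraries that stand apart from their group were not tested for.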

How the results depend on the processing

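Of 750 values of the 10 genes under alternatives, 689 kept their direction and their side of the threshold, 19 lost a call, 21 gained one and 21 changed sign. Icam1 was called in M0 and in the difference of responses in every fit, and every fit called 9 genes for IL-4 in WT. In M0, limma called 3 genes with either pseudocount, and leaving out 1 library gave 3 to 6. In M2, DESeq2 called 2, limma 0 with either pseudocount, the fit of only 6 libraries 0, and leaving out 1 library gave 0 to 1. In the difference, DESeq2 called 4, no filter 3, and leaving out 1 library gave 1 to 2.

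With the mouse as a replicate block, 4 genes were called in the difference and 9 instead of 8 for IL-4 in KO, and no other call on the 10 genes changed. The ninth gene for IL-4 in KO, Itgb2, was called in 7 of 8 alternatives, all but the fit without a filter (adjusted p = 0.0811 by edgeR), and leaving out 1 library gave 7 to 8 genes. A replicate block by library number, which did not pair WT with KO, called 3 genes in M2 (Itgal, Itgax and Itgb2) and 5 in M0.

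Signs changed only for values near 0. Itgam with IL-4 in KO was -0.002 with DESeq2, RLE factors, the mouse as a replicate block and only 6 libraries, -0.009 without a filter, -0.007 with 1 CPM in all libraries, -0.073 with limma at either pseudocount, and -0.058 to 0.09 without 1 library. In the difference, Itgal was -0.04 with limma at pseudocount 1, and Itgb5 was -0.01 and -0.012 with limma at pseudocounts 1 and 0.1. Without 1 library, Itga6 in M0 ranged from -0.066 to 0.032, Itga4 in M2 from -0.192 to 0.027 and Itgb1 in the difference from -0.049 to 0.019. The α to β2 ratio rose by 0.195 with IL-4 in WT when taken from CPM, which is not scaled by length. The cause of these changes was not tested. The poorest libraries held 138 counts of Itgal and 258 of Itgax, the lowest of the 10 genes.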
